A study of Drosophila melanogaster with 3 samples.

Results

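Binding of the zinc-finger protein CG5245 was examined at 10 genes of the piRNA pathway and the germline in Drosophila melanogaster embryos. The genes were taken by symbol from the Ensembl gene models, namely piwi, aub, AGO3, vas, armi, zuc, papi, spn-E, krimp and qin. All 10 were found among the 13945 protein-coding genes on the 6 main chromosome arms. The data come from chromatin immunoprecipitation followed by sequencing (ChIP-seq) on a fly line that stably carries CG5245 with enhanced green fluorescent protein at its C terminus. There was 1 group, made of pooled male and female whole embryos aged 0 to 16 h, with 3 biological replicates, and every replicate carried the transgene. The pull-down used an antibody to the tag per the description in the labels, although their antibody field reads CG5245, and sonicated fragments measured 200 to 800 bp. No promoter of the transgene is given in the sources used here. There was no second genotype or stage, so binding at these genes was set against the other protein-coding genes and between replicates.

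PIWI-interacting RNAs (piRNAs) are small RNAs that guide the PIWI clade of Argonaute proteins to transposon transcripts in animal gonads. In flies long precursor transcripts are cut into piRNAs at mitochondria and at the nuage, a perinuclear granule of germ cells, where a slicing cycle known as ping-pong amplifies them. Piwi protein enters the nucleus and silences transposons at transcription, whereas Aubergine and Argonaute 3 cut transposon RNA in the cytoplasm. Mothers load several of these proteins and their mRNAs into the egg, and in the embryo they mark the pole cells, which become the germline. Whole embryos were used, so the share of cells bound and the strength of binding per cell cannot be told apart.

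Each deposited list gives regions with a summit and a signal value, a score from the authors' peak caller that is used here only to rank regions within 1 list. The reproducible set (irreproducible discovery rate, IDR) held 3670 peaks on the dm6 assembly, with signals from 92.4 to 2002 and a median of 147.6. The candidate lists, which hold peaks and background together, had 30000 regions for the pooled replicates, 30000 each for replicates 1 and 2, and 29608 for replicate 3. The 3670 regions of highest signal in a replicate are called its top regions. A gene counted as occupied if it had a transcription start site (TSS) no more than 500 bp from a reproducible summit. No list holds read counts, so depth is unknown.

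CG5245 was at the promoters or first introns of piwi and papi, and at none of the other 8 genes did a reproducible summit lie in the gene or within 500 bp of a TSS. The 2 occupied genes of 10 made 20.0%, near the 15.8% of all protein-coding genes that were occupied by the same rule. When a summit counted for nothing but the closest TSS, the same 2 genes were occupied, against 11.5% of protein-coding genes. Summits inside the gene body were found in the same 2 genes, against 9.85% of protein-coding genes. Gene length bears on that share, and the median length was 5107 bp for the 10 genes and 2166 bp for protein-coding genes. The count of 2 is therefore close to the background and says nothing particular of the pathway as a whole.

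The DNA at the summits of these peaks and of the reproducible summit nearest to armi is shown, because the calls at the 10 genes turn on these 4 sites. Each run of 101 bases is centred on the summit and read 5′ to 3′ on the plus strand of the Release 6 genome (dm6). Capitals mark matches, on either strand, to the 6 motifs searched.
papi, first intron, chr2L:2221744-2221844: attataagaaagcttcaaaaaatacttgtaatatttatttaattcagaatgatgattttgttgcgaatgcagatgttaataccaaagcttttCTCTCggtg
piwi, first intron, chr2L:10986213-10986313: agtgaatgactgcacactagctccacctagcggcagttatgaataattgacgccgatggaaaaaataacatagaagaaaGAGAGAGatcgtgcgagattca
piwi, upstream of the TSS, chr2L:10987509-10987609: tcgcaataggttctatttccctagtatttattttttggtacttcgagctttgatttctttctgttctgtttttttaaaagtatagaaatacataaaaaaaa
armi and eIF5B, chr3L:3460691-3460791: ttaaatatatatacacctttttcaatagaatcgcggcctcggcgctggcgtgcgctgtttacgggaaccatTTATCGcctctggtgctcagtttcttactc

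The motifs were TATCGATA (DRE), CGATA (BEAF-32), GATAA (GATA factors), GAGAG (GAGA factor), GGTCACACT (core promoter Motif 1) and CAGCTG (E-box). A DRE holds 2 overlapping BEAF-32 matches, and GATAA and CGATA can share 4 letters. Windows of 101 bp centred on all 3670 reproducible summits held these letters in 1.88%, 16.6%, 22.9%, 10.2%, 0.627% and 4.06% of cases in that order. Windows of the same length centred on the first TSS of each protein-coding gene held them in 5.57%, 25.8%, 22.5%, 11.5%, 4.37% and 9.34%. The papi window had 1 GAGAG match, on the minus strand 42 bp to the right of the summit. The piwi intron window had 2 overlapping GAGAG matches on the plus strand, the first starting 29 bp to the right of the summit. The window upstream of piwi had 0 matches, and the armi window had a BEAF-32 and a GATA match that overlap, starting 22 and 21 bp to the right of the summit. A and T made up 72.3% of the papi window and 74.3% of the window upstream of piwi, above the median of 65.3% over all reproducible summits. They made up 57.4% of the piwi intron window and 53.5% of the armi window, below that median. The 4 sites thus had no motif of the 6 in common.

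Among the Argonaute genes, piwi had 2 reproducible peaks while aub and AGO3 had none. The piwi gene (FBgn0004872, 2L from 10982205 to 10987420, minus strand) encodes the nuclear Argonaute. Its stronger peak, from 10986065 to 10986460, had a signal of 195.7 and rank 1107 of 3670. The summit at 10986263 lay 1157 bp downstream of the only annotated TSS, inside the first of 7 introns and 135 bp short of the second exon. This region ranked 891 in replicate 1, 2053 in replicate 2 and 1307 in replicate 3, with signals of 90.6, 45.5 and 49.6 on the scale of each list. Its summits in the replicates lay within 26 bp of the pooled one, and all 3 regions were top regions.

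The second piwi peak, from 10987361 to 10987756, was close to the lower end of the set, with a signal of 97.3 and rank 3414. Its summit at 10987559 lay 139 bp upstream of the TSS of piwi and 247 bp from that of CG12253, which is transcribed in the opposite direction. It was a top region in replicate 2 (signal 40.5, rank 2439) and replicate 3 (33.7, rank 2581), but not in replicate 1 (27.6, rank 6768). In replicate 3 the summit lay nearer to the TSS of CG12253 (191 bp) than to that of piwi (195 bp). The call at the piwi promoter thus rested on replicates 2 and 3, and it was lost when either was left out and peaks had to be top regions in both others. The intron peak was a top region in all 3 replicates.

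**Figure D1:**
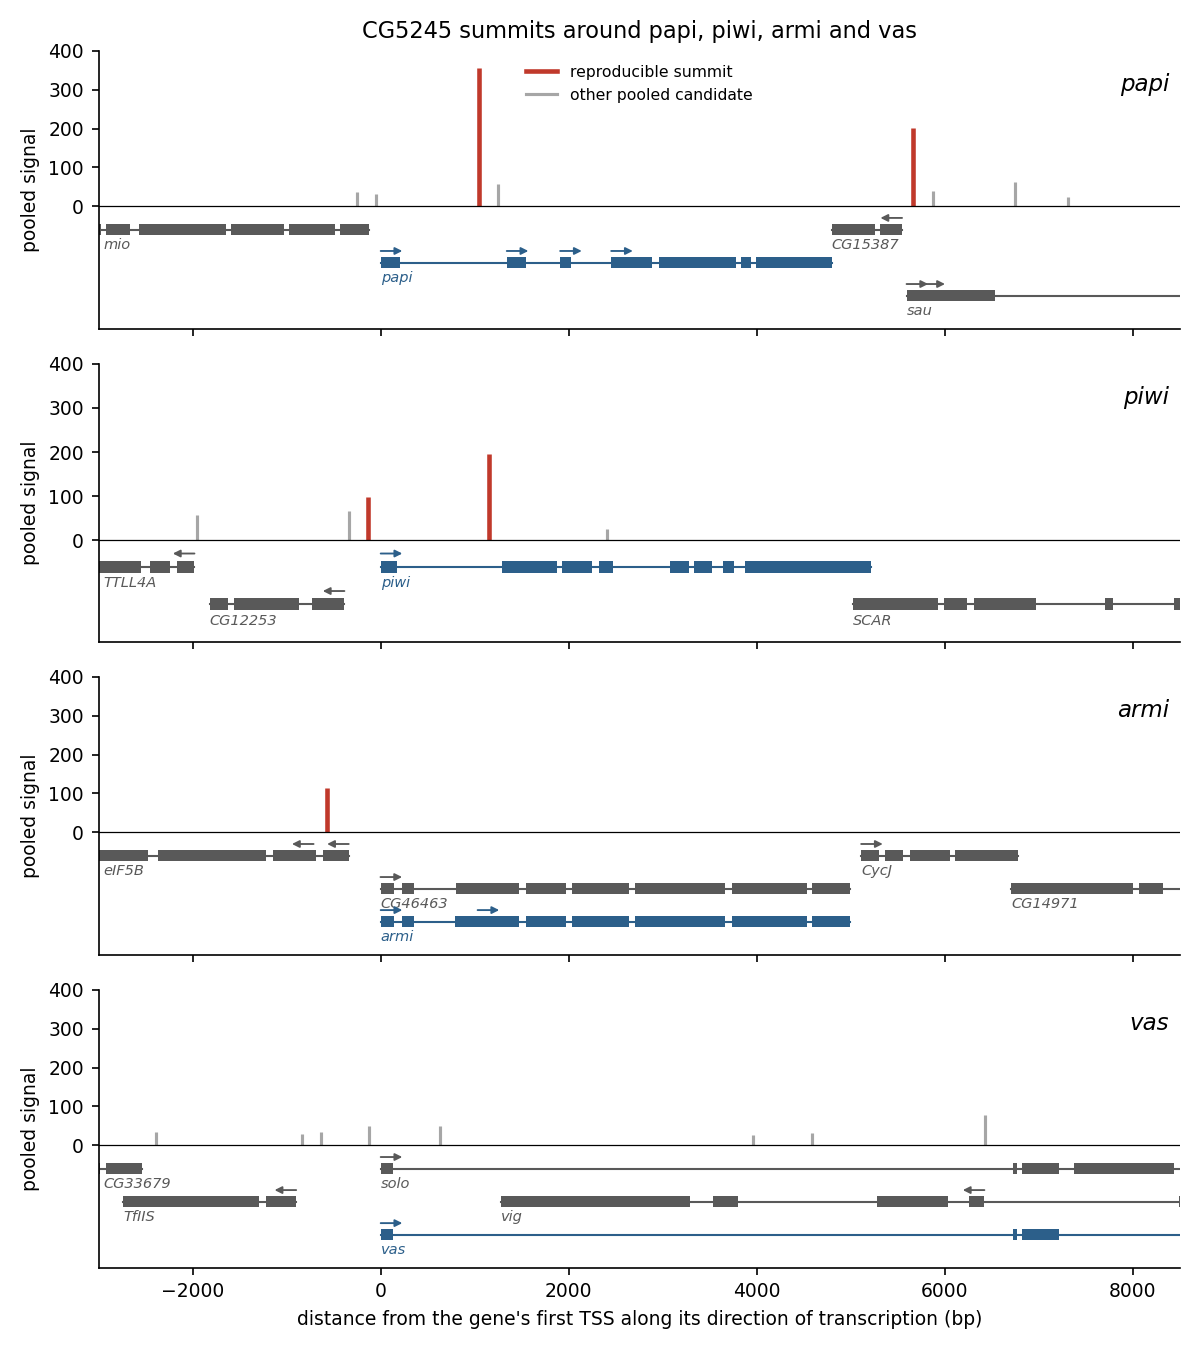
Signal of summits in the pooled list (y axis, the caller's own scale) against distance in bp from the first TSS of papi, piwi, armi and vas along each gene's direction of transcription. Red lines are reproducible summits, grey lines other pooled candidates, boxes exons and arrows TSSs; the red lines of papi at 1046 bp and of piwi at 1157 bp both stand in the first intron.

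The aub gene encodes Aubergine, a cytoplasmic slicer of the ping-pong cycle. It lies on 2L from 10997819 to 11001476 (minus strand, FBgn0000146), near piwi on the same arm. The pooled list had 1 candidate within 500 bp of its 2 TSSs, at rank 27513 with a signal of 26.0. Replicate 2 had a candidate there at rank 21374, and replicates 1 and 3 had none. The nearest reproducible summit, 2680 bp from a TSS of aub, lay 3 bp from a TSS of RpL9, which encodes a ribosomal protein, and ranked 2939.

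The AGO3 gene encodes Argonaute 3, the usual partner of Aubergine in ping-pong. It spans 135048 bp on 3L from 23554593 to 23689640 (plus strand, FBgn0250816). No list had a region within 500 bp of either TSS, and the pooled list had none in the whole gene. The replicates had 0, 1 and 2 candidates in the gene. The nearest reproducible summit, at 23494006 and 60587 bp before the gene, was the last one on arm 3L. Beyond it lay 4616 kb of assembled sequence with 28 protein-coding genes, of which 5 had a pooled candidate within 500 bp of a TSS. In the 500 kb around AGO3 the pooled list had 0.800 summits per 100 kb, against 24.6 over the whole arm. Bases in lower case in the RefSeq sequence, which marks repeats, made up 37.4% of the gene against 21.2% of the arm. Of 83 protein-coding genes of 100 kb or longer, 10 (12.0%) had no pooled candidate in the gene or near a TSS. The part of repeats in the lack of regions was not tested.

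**Figure D2:**
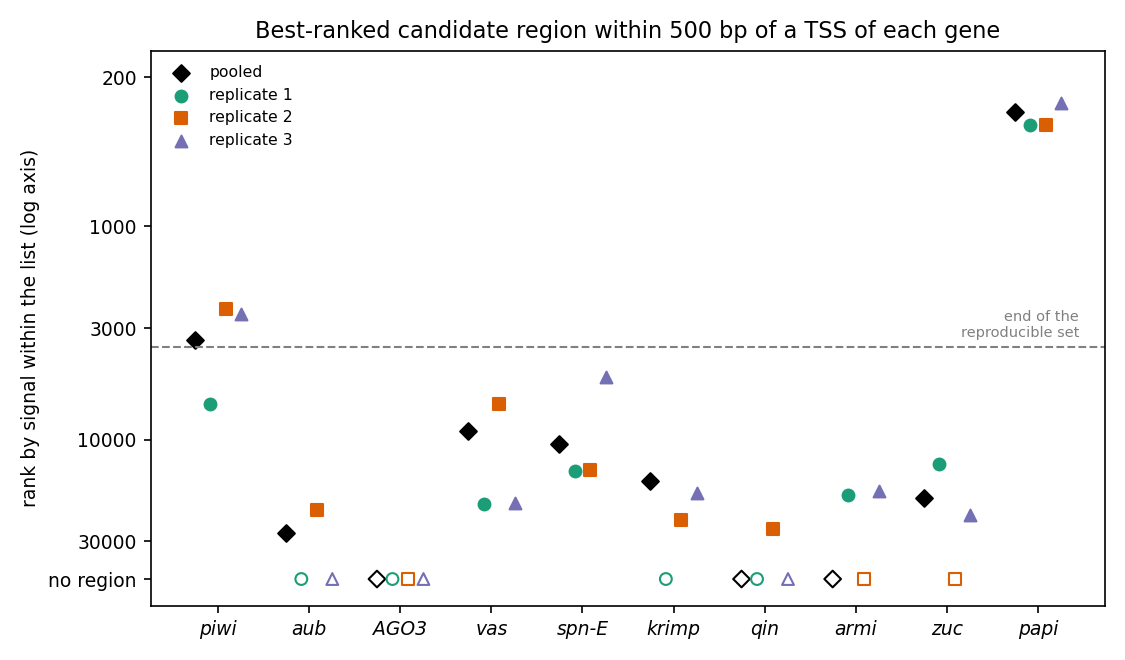
Rank by signal (log axis, strongest at the top) of the best region within 500 bp of a TSS of each of the 10 genes, in the pooled list and in each replicate. Open symbols mark lists with no such region; papi ranks between 265 and 336 in all 4 lists, and 8 genes have no symbol above the dashed line at rank 3670.

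The strongest peak at these genes was in papi. It encodes a Tudor and KH domain protein of the mitochondrial surface that takes part in trimming piRNA ends. The gene (FBgn0031401) lies on 2L from 2220748 to 2225544 on the plus strand and has 4 annotated TSSs. Its peak, from 2221668 to 2221848, had a signal of 356.7 and rank 292 of 3670. The summit at 2221794 lay 1046 bp downstream of the first TSS, in the first of 6 introns, and 295 bp upstream of the second TSS, which opens the second exon. It was the best-ranked region of the gene in each replicate, with rank 334 and a signal of 136.2 in replicate 1, rank 336 and 114.0 in replicate 2, and rank 265 and 106.2 in replicate 3. The replicate summits lay 20 bp to the right, 3 bp to the left and 0 bp from the pooled one. The peak was 181 bp wide, against a median of 396 bp in the set. No other gene's TSS was nearer to it. In a window of 250 bp papi was not occupied, since the summit is outside it.

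The reproducible peaks next in rank to that of papi were of almost equal signal. The peak at rank 291 (357.3) had its nearest TSS at stck, 1252 bp away, and the peak at rank 293 (356.6) at hng3, 390 bp away. The first introns that hold the papi and piwi summits measured 1137 and 1120 bp. In both genes the summit stood nearer to the second exon than to the first, by 295 against 843 bp in papi and by 135 against 986 bp in piwi.

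**Figure D3:**
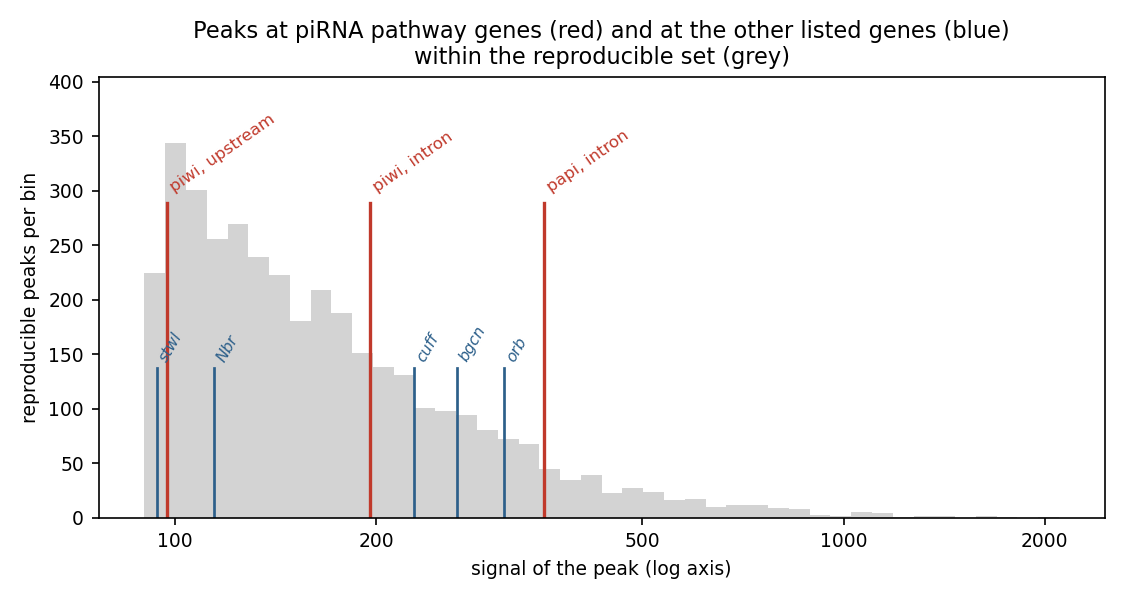
Number of reproducible peaks (y axis, grey bars) by signal (log axis), with the 3 peaks of papi and piwi as red lines and the promoter peaks of 5 other listed genes as blue lines. The papi peak at 356.7 and the piwi intron peak at 195.7 lie above the median of 147.6, and the piwi upstream peak at 97.3 lies near the lower end.

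The other genes of piRNA maturation, armi and zuc, were not occupied. The armi gene (FBgn0041164, 3L from 3461317 to 3466314, plus strand) encodes Armitage, an RNA helicase that feeds precursors to the mitochondrial endonuclease. A reproducible peak of signal 115.3 and rank 2678 had its summit 576 bp upstream of armi, just outside the window. That summit lay 138 bp from a TSS of eIF5B, which encodes a translation initiation factor and is transcribed the other way. The region ranked 1936 in replicate 1, 3307 in replicate 2 and 4056 in replicate 3, and was no top region in the last. In a window of 1000 bp armi was occupied, which made 3 of 10 genes against 18.5% of protein-coding genes. Within 500 bp of armi the pooled list and replicate 2 had no candidate, while replicate 1 had one at rank 18151 and replicate 3 one at rank 17461, the last 42 bp from a TSS of eIF5B. The annotated start of CG46463 lies 2 bp from that of armi, so peaks at these TSSs could not be assigned to 1 of them.

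The zuc gene (FBgn0261266, 2L from 11988735 to 11989882, minus strand) encodes Zucchini, the mitochondrial endonuclease that forms phased piRNAs. Its best candidate ranked 18703 in the pooled list, 12990 in replicate 1 and 22655 in replicate 3, and replicate 2 had none. The summits of the pooled list and replicate 1 lay 484 and 481 bp inside the gene, whereas that of replicate 3 lay 304 bp upstream. The replicate 3 summit was nearer to dgt2, whose TSS is 54 bp from that of zuc on the other strand. The nearest reproducible summit was 16823 bp away.

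The helicase genes vas and spn-E had weak candidates within 500 bp of a TSS in the pooled list and in each replicate. None was a top region or a reproducible peak. The vas gene encodes Vasa, a DEAD-box helicase of the nuage and a marker of germ cells, and lies on 2L from 15061656 to 15074311 (plus strand, FBgn0283442). Its promoter candidate had a pooled signal of 49.9 and rank 9099, with ranks of 20003, 6823 and 19802 in replicates 1, 2 and 3. It cannot be told apart from one of solo, which starts at the same base. A stronger pooled candidate inside vas, of signal 79.2 and rank 4613, lay in an intron 2 bp from the TSS of vig, a gene nested in vas. It ranked 3854, 5840 and 7878 in replicates 1, 2 and 3, below the top regions in each. The nearest reproducible summit, of rank 933, lay 4777 bp before vas, with its nearest TSS at ck.

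The spn-E gene (FBgn0003483, 3R from 15837419 to 15844415, plus strand) encodes Spindle-E, a helicase of the nuage needed for ping-pong. Its best candidate had a pooled signal of 45.8 and rank 10439, with ranks of 14063, 13873 and 5071 in replicates 1, 2 and 3. The summits of the replicates were scattered, at 7 and 319 bp downstream of the TSS in replicates 1 and 2 and 262 bp upstream in replicate 3. In replicate 3 the summit lay 40 bp from the TSS of ND-23, which encodes a subunit of respiratory complex I. The nearest reproducible summit was 20920 bp away.

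The Tudor domain genes krimp and qin, whose proteins organise the ping-pong partners in the nuage, had few regions near a TSS. At krimp (FBgn0034098, 2R from 16238103 to 16240722, minus strand) the pooled candidate 163 bp upstream of the TSS ranked 15563. Replicates 2 and 3 had it at ranks 23731 and 17826, with summits 163 and 161 bp upstream, and replicate 1 had none. At qin (FBgn0263974, 3R from 18591027 to 18650137, plus strand) replicate 2 had the single candidate, of rank 26230 and 4 bp from the TSS. The pooled list had 8 candidates along the 59111 bp of qin, the best at rank 12494. All of them were nearer to a TSS of another gene than to that of qin. The best lay 32487 bp from the TSS of qin and 2187 bp from that of CG14304. The nearest reproducible summits were 9241 bp from krimp and 5267 bp from qin, with their nearest TSSs at CngA and fray.

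**Figure D4:**
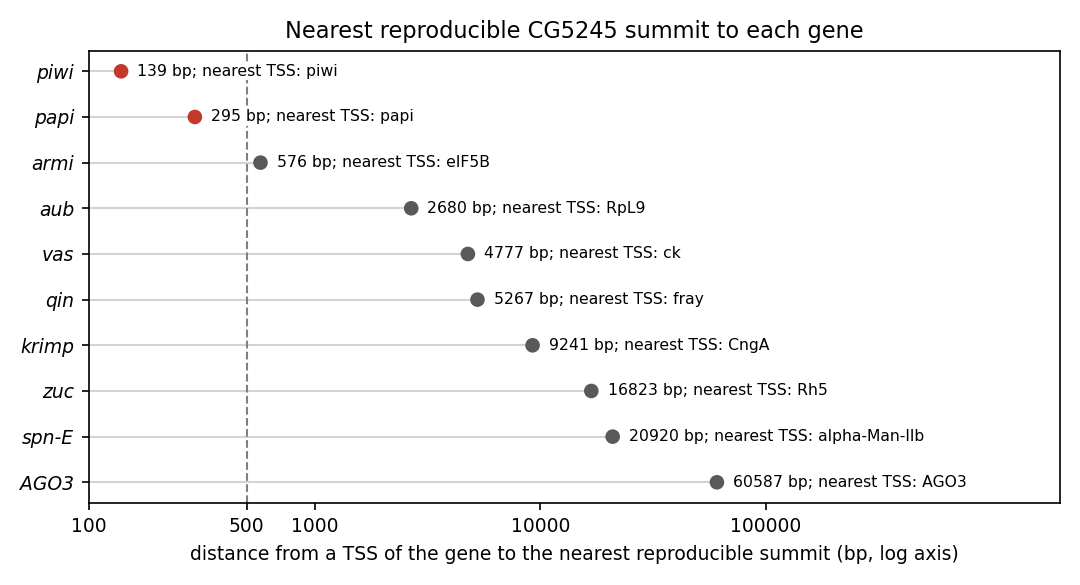
Distance in bp (log axis) from a TSS of each gene to the nearest reproducible summit, with the gene of the TSS nearest to that summit; the dashed line marks 500 bp. The distances run from 139 bp at piwi to 60587 bp at AGO3, and piwi and papi (red) are the 2 genes inside the line.

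Weak candidates were common at the 10 genes and among protein-coding genes. Within 500 bp of a TSS the pooled list had a region at 7 of 10 genes, against 51.2% of protein-coding genes. Inside the gene it had one at 8 of 10, against 40.8%. Gene length bears on the latter share, with medians of 5107 bp for the 10 genes and 2166 bp for protein-coding genes. The candidate inside spn-E lay 5 bp from a TSS of Pbp45. The replicates had one near a TSS at 6, 7 and 7 of the 10 genes, against 53.1%, 50.3% and 45.7% of protein-coding genes in replicates 1, 2 and 3. With genes that lack a candidate counted as past the end of the list, the median best rank was 17130 over the 10 genes and 27760 over protein-coding genes. Top regions were fewer. They lay near a TSS of 1, 2 and 2 of the 10 genes in replicates 1, 2 and 3, which gave 1.67 ± 0.577 genes (SD, n = 3). The shares of protein-coding genes were 16.5%, 15.4% and 15.1%. A second protein-coding gene on the other strand started within 500 bp of 4 of the 10 genes, namely piwi, armi, zuc and spn-E, against 27.8% of protein-coding genes. At such pairs a summit near one start can also be near the other, but need not be. The summit 138 bp from a TSS of eIF5B lay 576 bp from armi, outside the window.

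Of 41 other genes of the pathway and of the germline, in 4 lists, 5 (12.2%) were occupied, against the 15.8% of protein-coding genes given above. By the closest TSS alone the share was 4.88%, against 11.5% of protein-coding genes. Among 8 genes of piRNA precursor transcription and export, which include rhi, del, moon and tj, only cuff was occupied. Its protein, Cutoff, protects precursors in the nucleus. The peak on 2R had a signal of 227.9 and rank 817, with ranks of 887, 995 and 946 in replicates 1, 2 and 3. Its summit was nearer to the TSS of CG13185 (144 bp) than to that of cuff (338 bp). Among 13 genes of biogenesis and amplification only Nbr, which encodes the trimming exonuclease Nibbler, was occupied. That summit, of signal 114.3 and rank 2703, lay 495 bp from Nbr and 63 bp from Noc2, and the region ranked 4081, 2588 and 2110 in the replicates.

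None of the 6 genes of transcriptional silencing was occupied, against 15.8% of protein-coding genes. Even so, wde had the strongest peak of all listed genes. The gene wde encodes Windei, the cofactor of the histone methyltransferase Eggless. Its peak had a signal of 534.5 and rank 111, and ranked 137, 156 and 73 in replicates 1, 2 and 3. The summit lay in the first intron of wde, 531 bp from a TSS and so just outside the window. Of the 14 germ plasm and germline development genes, 3 were occupied, against the same 15.8%. The lists are too short for these counts to set one list apart from another. The peak of bgcn, which encodes a partner of Bam in germline differentiation, had a signal of 263.7 and rank 614, and stood in an untranslated exon 132 bp from the TSS. It ranked 593 in replicate 1 and 357 in replicate 2, but 2135 in replicate 3. The peak at orb, which encodes an RNA-binding protein of the oocyte, had a signal of 310.8 and rank 419 and was closer to Cdc16 (89 bp) than to orb (256 bp). That of stwl, a gene of germline stem cell maintenance, was weak, with a signal of 93.9 and rank 3589. Its replicate ranks were 2764, 7268 and 4016, so this peak was a top region in replicate 1 only. Another reproducible peak, of signal 112.0 and rank 2788, had its summit 547 bp from stwl and 140 bp from CG3919, outside the window. The best region overlapping that peak in replicate 3, of rank 2751, had its summit 260 bp from stwl. When a summit counted for nothing but the closest TSS, bgcn and stwl remained, the 2 of 41 genes that make the 4.88% given above. Summits inside the gene were found in 4 of the 41 (9.76%), namely Hen1, wde, bgcn and stwl, against the 9.85% of protein-coding genes given above. The summit in Hen1 lay 4686 bp from its TSS and 210 bp from a TSS of bsd. A pooled candidate lay near a TSS of 29 of the 41 (70.7%), against 51.2% of protein-coding genes. The germ plasm gene osk and the germline genes nanos, vls, bam and otu had no reproducible summit within 500 bp of a TSS. Of these, nanos had a pooled candidate of rank 3966 and a top region in replicate 1, of rank 3061. Their summits lay 343 and 297 bp from nanos, and 83 and 76 bp from CG11779.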

How the data were processed

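The authors deposited region lists in narrowPeak form for each replicate, for the 3 replicates pooled and for the reproducible set. Per the text files deposited beside them, candidates were derived from each alignment or the pooled alignments with 1 control, and the reproducible set from those candidates by IDR. The sources used here name neither the aligner nor the peak caller. The deposited signal is the caller's score, and its q value is deposited on the −log10 scale (3.88 throughout the reproducible set). Lists on dm6 were used, and those on dm3 and the control were not analysed here.

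Summits were taken as start plus offset. Gene models were Ensembl release 115 on Release 6, without transposable elements (18164 genes, 23581 distinct TSSs). Sequence was the RefSeq copy of the same release. The first coding codon of 10 of 10 genes read ATG there. Overlap of regions needed at least 1 bp. Calls were counted, and no significance test was run, since there is 1 group. The distance rule was checked with simulated single summits planted at known distances from a TSS, and returned the planted answer in 1000 of 1000 placements. That checks the arithmetic of the rule and not the accuracy of the peaks. Python 3.11.15 with pandas 2.3.3 and NumPy 2.4.6 was used.

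The genes, lists, motifs and alternatives were chosen with earlier results of these data known. Named in the text are the 10 genes, occupied genes of the other lists, closer neighbours and the peaks next in rank to that of papi. The genes at nearest summits, wde and genes given as not occupied were named after their values were seen. Of the 51 listed symbols, nos, boot and nbr were matched as nanos, Boot and Nbr. Alternatives were other windows, nearest TSS only, stronger peaks, and reproducible peaks that were top regions in all replicates or in each pair of them.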

Additional observations from a re-analysis of the deposited data

How the results depend on the processing

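No paired analysis was possible because there is 1 group. Of the 10 genes, 2 were occupied, and 1 remained with a 250 bp window (piwi), with the upper 50% of peaks by signal (papi) and with peaks in top regions of all 3 replicates (papi). Leaving out 1 replicate meant keeping the reproducible peaks that were top regions in both others. The reproducible set itself was still drawn from all 3 replicates. This filter gave 1 to 2 genes, with 1 (papi) without replicate 2 or replicate 3. The share of protein-coding genes was lower than 15.8% under these settings as well, at 12.5% with a 250 bp window, 8.60% with the upper 50% of peaks, 10.7% with top regions of all 3 replicates, and 11.5% to 12.4% without 1 replicate. Of the other 41 genes, 5 were occupied. The count was 1 with a 250 bp window, 2 with the nearest TSS only and 3 with the upper 50% of peaks. It was 3 with peaks in top regions of all 3 replicates and 3 to 4 without 1 replicate. A 1000 bp window gave 7, which adds Boot and wde, against 18.5% of protein-coding genes. The summit at Boot lay 551 bp from its TSS and 64 bp from a TSS of Uhg4. Top regions lay near 1 gene in replicate 1, with 0 at 250 bp, 2 at 1000 bp and 2 among the upper 10000 regions. They lay near 2 genes in replicates 2 and 3, with 1 in each at 250 bp. At 1000 bp replicate 2 had 3 and replicate 3 had 2, and among the upper 10000 regions each had 3. The share of protein-coding genes was not computed for these changed windows and list lengths, so these counts cannot be set against a background. The count of 2 genes with a summit in the gene body was the same with the upper 50% of peaks, with peaks in top regions of all 3 replicates and without any 1 replicate. For the gene body the share of protein-coding genes was 9.85% with all peaks and was not computed for these settings. Stricter settings keep fewer peaks (1835 and 2440 of 3670), and without read counts a weak or missing region cannot be set against depth.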
